A study of Mus musculus with 4 samples.

Results

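Ankrd11 is a mouse gene on the minus strand of chromosome 8 (mm10, bases 122883321 to 123042284, 158.964 kb, protein-coding). The DHX9 peaks described here are those with their midpoint in its gene body or within 20 kb on either side. There were 222 of them, of 59563 peaks in all. The gene was chosen by its number of peaks, the highest among the 49980 placed genes, so that number and everything that follows from it is a description with no test.

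The peaks came from FLASH, a CLIP-seq method, in WT26, a male mouse embryonic stem (ES) cell line of mixed C57BL/6x129sV background, grown without feeder cells in serum and leukemia inhibitory factor. CLIP-seq crosslinks RNA to protein with ultraviolet light and sequences the fragments that come down with an antibody. The groups were 2 pulldowns with a rabbit antibody against DHX9 and 2 pulldowns with rabbit IgG, and the replicates of each were lettered A and B. All 4 samples came from this 1 unmodified line.

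The authors deposited 1 list of peaks for all 4 samples. It gives the borders and the strand of each peak, and the score field was empty for all 59563. There is therefore no height, read depth, value per replicate or value in IgG for any peak, and no error between replicates can be given. Intervals below are 95% Wilson intervals, which treat each peak as independent and cover counting error only. All 8 ES marker genes examined held peaks (6 to 151 each), and none of 6 fibroblast and none of 6 lineage markers did, where 22.8% of all protein-coding genes held a peak.

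DHX9 is a DExH-box helicase that unwinds RNA duplexes, among them those formed where inverted repeats in a nascent transcript fold back on each other. Most of the length of a long gene such as Ankrd11 is intron, so RNA from most of the gene body is removed by splicing. ANKRD11 is a large nuclear protein with ankyrin repeats that binds p160 nuclear receptor coactivators and histone deacetylases. Loss-of-function variants of the human gene cause KBG syndrome, a disorder of growth, teeth and development.

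The start of the gene is shown first, because the widest of the 222 peaks lay over it. That peak ran from base 123041657 to base 123042325 and was 669 bases wide. It covered the annotated first base of Ankrd11 (123042284), reached 628 bases into the gene and ended 41 bases before its start. The 300-base window around the start (RefSeq, GRCm38.p6, chromosome 8, 123042235 to 123042534, minus strand) runs from 250 bases before the first base to 50 bases into the gene. The 91 bases under the peak are in capitals, of which 41 lie before the start and 50 in the gene:
Ankrd11 start window: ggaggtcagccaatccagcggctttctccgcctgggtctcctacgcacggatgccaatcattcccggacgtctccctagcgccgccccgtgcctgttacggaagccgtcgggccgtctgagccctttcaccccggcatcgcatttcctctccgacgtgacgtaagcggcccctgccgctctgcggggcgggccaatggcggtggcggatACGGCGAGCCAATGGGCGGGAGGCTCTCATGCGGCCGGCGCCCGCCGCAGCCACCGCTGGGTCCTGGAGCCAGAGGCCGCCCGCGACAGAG

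The window was rich in G and C. It was 70.3% G or C, and the part under the peak was 76.9%. It held 36 CpG dinucleotides, 12 of them under the peak, against a median of 7 over 32851 RefSeq start windows of the same length. Only 6.23% of those windows held as many or more. Searched on both strands, CCAAT (the NF-Y motif) occurred 4 times, with 1 match under the peak, and 37.4% of all windows held it. GGGCGG, the core of the motif read by SP and KLF factors, occurred 4 times with 2 under the peak (35.7% of windows). TGACGT, part of the motif of CREB and ATF factors, occurred once, outside the peak (7.51% of windows). TATAAA did not occur (13.6% of windows). None of the 9 matches overlapped another. The shares count windows with at least 1 match and were not adjusted for G and C content, which was high in this window.

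A peak over the annotated start was uncommon among the genes with the most peaks. Of the other 41 protein-coding genes with at least 100 peaks, 6 had their first annotated base under a peak on the strand that held most of their peaks. In none of these 41 was it the widest peak of the gene that lay there. The first peak of Ankrd11 began 41 bases before the start, against a median of 237 bases after it in the others (quartiles 76 and 2275 bases after). The largest distance was 88277 bases, in Tcf20. The start used is the outermost base of the gene record, and whether it is the start in use in these cells was not tested.

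All 222 peaks were on the minus strand, the strand of Ankrd11, and none was on the plus strand. Peaks were found in 22.8% of the 21900 protein-coding genes, and in 27.9% of the 369 within 10% of the length of Ankrd11, this gene included. Ankrd11 alone held 4.29% of the 5170 peaks of chromosome 8 and 0.373% of the whole list. Its peaks together lay over 49.7 of its 159 kb (31.2%), at 1.40 peaks per kb.

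**Figure D1:**
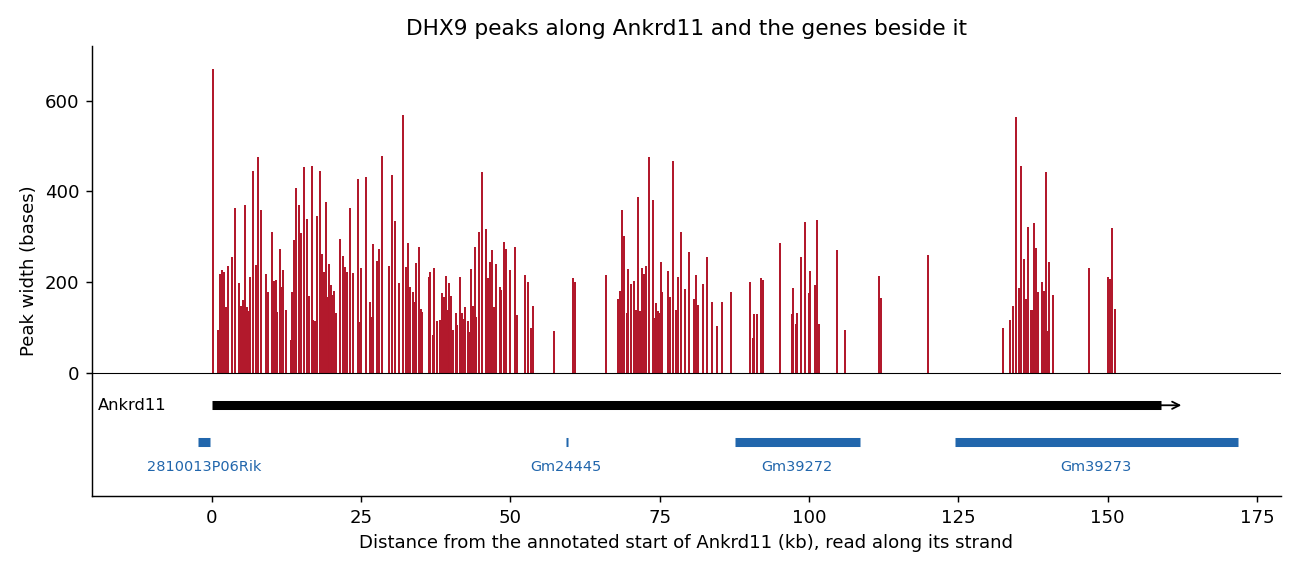
Each red line is 1 of the 222 DHX9 peaks, placed at its midpoint (x axis, kb from the annotated start of Ankrd11, read along its strand) with its width in bases as its height; all are on the strand of Ankrd11 (black bar). Blue bars are the genes that overlap it or lie just before its start: Gm39272, Gm39273 and 2810013P06Rik are on the opposite strand, and the strand of Gm24445 is not in the tables used. The 669-base peak stands at the start, no peak has its midpoint before it or past 151.222 kb, and peaks thin out between 105 and 132 kb.

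The peaks were not spread evenly along the gene. Cut into 5 equal parts from its start, the gene held 73 peaks in part 1 (32.9%, interval 27.0 to 39.3%), 60 in part 2 (27.0%) and 48 in part 3 (21.6%). Part 4 held 16 (7.21%, 4.48 to 11.4%) and part 5 held 25 (11.3%, 7.75 to 16.1%). In peaks per kb this was 2.30 in part 1, 0.503 in part 4 and 0.786 in part 5. Peaks lay over 59.8% of the bases of part 1 and 10.1% of those of part 4. The 79.5 kb nearest the start held 164 peaks with a median gap of 124 bases, and the 79.5 kb nearest the end held 58 with a median gap of 309 bases. The amount of RNA along the gene is not in the list, and where RNA is more abundant cannot be told apart from where DHX9 binds more.

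In finer steps the highest count was not at the start. Cut into 10 equal parts, the gene held the most peaks in part 3, 46, against 37 in part 1 and 36 in part 2. Part 8 held 3. Among bins of 5 kb, that from 40 to 45 kb had the most peaks, 17, while that from 15 to 20 kb had the largest share of bases under peaks, 81.0%. Bins without a peak midpoint lay at 115 to 120 kb, 125 to 130 kb and from 155 kb to the end.

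**Figure D2:**
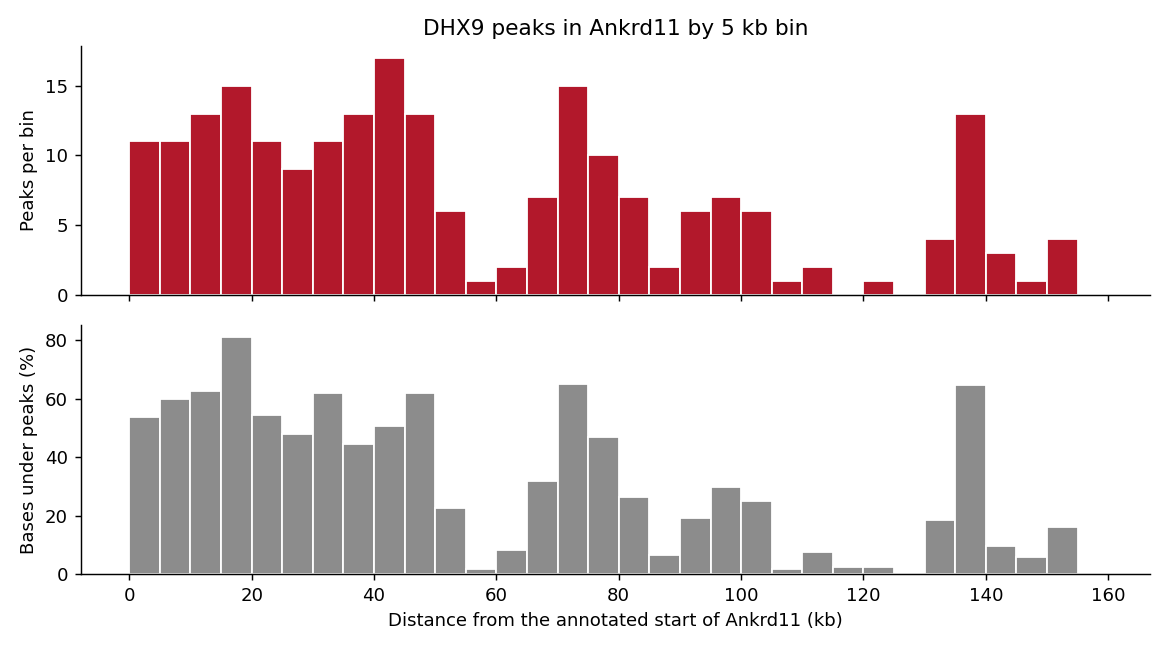
Peaks (upper panel, number with their midpoint in the bin) and the share of bases under peaks (lower panel, percent) in 5 kb bins along Ankrd11, from its start at 0 to its end. Bins from 0 to 50 kb hold 9 to 17 peaks each; later maxima of 15, 7 and 13 peaks stand at 70, 95 and 135 kb with near-empty bins between them.

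Stretches without peaks divided the gene into blocks. With gaps over 2 kb as borders, a limit chosen after the data were seen, there were 12 blocks, and 6 of them held only 1 or 2 peaks. The first block began at the start and ran for 53.9 kb (bases 122988390 to 123042325). It held 130 of the 222 peaks (58.6%), with a median gap of 121 bases and no gap over 1146 bases, and 55.8% of its bases lay under peaks.

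The second large block lay 66.0 to 87.0 kb from the start (122955260 to 122976301). It held 41 peaks over 21.0 kb, 1.95 per kb, and 42.0% of its bases lay under peaks. The third lay 132.5 to 141.0 kb from the start (122901272 to 122909778). It held 20 peaks over 8.51 kb, 2.35 per kb, close to the 2.41 per kb of the first block, and 54.7% of its bases lay under peaks. These 3 blocks held 191 peaks (86.0%) in 83.5 kb, and the remaining 75.5 kb held 31.

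The 5 longest gaps all lay beyond 60 kb from the start. The longest was 12.4 kb (122909779 to 122922153), just before the third large block in the direction of the gene. Then came gaps of 7.77 kb (122922414 to 122930185), 5.76 kb (122895510 to 122901271), 5.48 kb (122930721 to 122936198) and 5.07 kb (122976302 to 122981373). The 11 gaps over 2 kb made up 53.4% of all bases between peaks.

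Most peaks followed each other closely. The median gap was 147 bases over all 221 neighbouring pairs (quartiles 56 and 352). It was 140 bases over the 210 pairs within blocks, which leave out the gaps over 2 kb by definition. Over the whole list the median was 303 bases (quartiles 97 and 1424), but those gaps include the stretches between genes. Shorter gaps in Ankrd11 also follow in part from its choice by number of peaks. Its pairs at most 50 bases apart numbered 47 (21.3%), and 2 pairs overlapped. Merging peaks within 50 bases left 175 runs, of which 137 were single peaks, 31 held 2, 6 held 3 and 1 held 5.

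The run of 5 peaks was also the longest, at 1295 bases (123022242 to 123023536), 18.7 kb from the start. Next in length among runs of several peaks were those of 3 at 123033909 to 123035019 (1111 bases), 123023678 to 123024767 (1090 bases) and 122904124 to 122904895 (772 bases), and another at 123030220 to 123030972 (753 bases). Of these 5 runs, 4 lay in the first block and 1 in the third large block.

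Peak widths in Ankrd11 were like those of the list. The median was 206 bases (quartiles 146 and 270, range 74 to 669), against 196 over all peaks (quartiles 146 and 268, range 18 to 1001). Peaks of at least 300 bases made up 18.5% of those in Ankrd11 and 18.2% of the list. After the peak at the start, the widest were 568 bases (123009982 to 123010549), 564 bases (122907326 to 122907889), 479 bases (123013509 to 123013987) and 476 bases (122968810 to 122969285), so that each of the 3 large blocks held at least 1 of the 5. The narrowest were 74, 78 and 84 bases, at 13.4, 90.7 and 37.0 kb from the start.

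**Figure D3:**
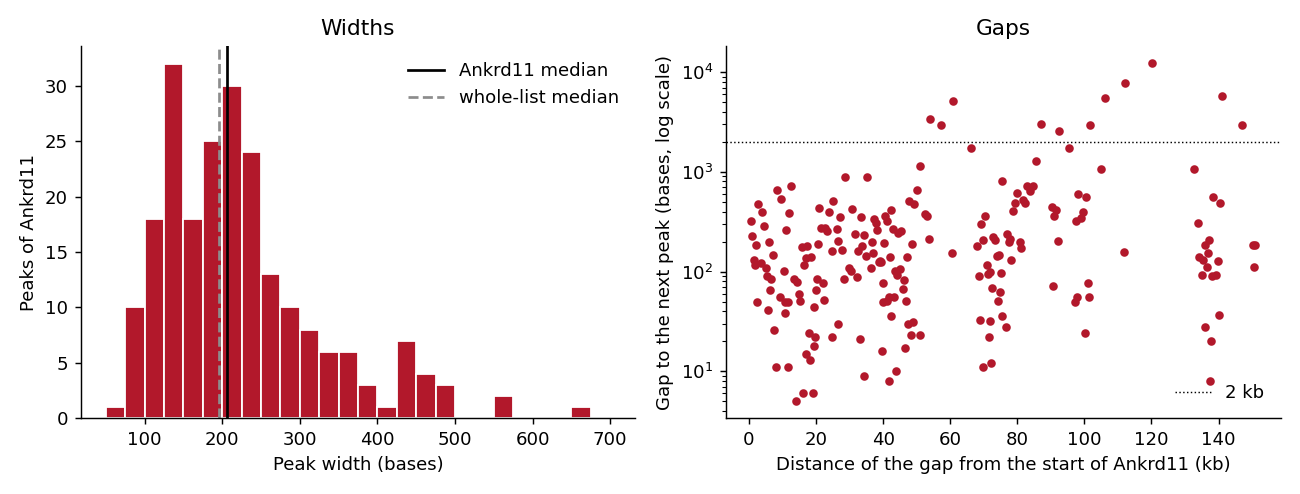
Left, widths of the 222 peaks of Ankrd11 in bins of 25 bases, with their median (206 bases, solid line) and that of the whole list (196 bases, dashed line). Right, the 218 gaps above 0 between neighbouring peaks (log scale, bases) against distance from the start (kb); the 11 gaps above the dotted line at 2 kb all begin beyond 53 kb.

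The peaks stopped at the start of the gene and short of its end. No peak on either strand had its midpoint within 20 kb outside the gene body. Before the start, the nearest peak outside it was 20.6 kb away on the minus strand (123062887 to 123063027), in no annotated gene. Past the end, the nearest was 85.7 kb away, on the plus strand, in Acsf3, an acyl-CoA synthetase gene. Inside the gene, the last peak (122890992 to 122891132) left 7.67 kb without peaks before the annotated end.

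Empty flanks were shared with many other genes rich in peaks. Of the other 41 genes with at least 100 peaks, 18 also had no peak on either strand within 20 kb of either side. On the strand of their own peaks, 35 had none past the end and 28 none before the start. The distance from the last peak to the annotated end was 7.67 kb in Ankrd11, against a median of 2.57 kb in these genes (quartiles 0.784 and 11.1 kb). As a share of gene length it was 4.83% in Ankrd11 and a median of 2.10% in the others.

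Gene models on the other strand overlapped Ankrd11, and their peak counts came wholly from its strand. The long noncoding RNA gene Gm39273 (122870413 to 122917878, plus strand) overlaps the last 34.6 kb of Ankrd11 and held 25 peaks, all on the minus strand. Gm39272 (122933796 to 122954618, plus strand), another long noncoding RNA gene, lies wholly inside Ankrd11 and held 20 peaks, again all on the minus strand. Thus 45 of the 222 peaks lay in a second gene, and none of the 45 was on that gene's strand. For comparison, 4.35% of the 9533 long noncoding RNA genes of known strand held a peak on either strand.

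Peaks per kb were 0.723 where Gm39273 overlaps Ankrd11 and 0.960 over Gm39272, against 1.71 in the 103 kb of Ankrd11 outside other genes. Both lie more than 79.5 kb from the start of Ankrd11, where peaks were sparse. Within that stretch, the 55.4 kb in another gene held 45 peaks (0.813 per kb) and the 24.1 kb in no other gene held 13 (0.539 per kb). The small nuclear RNA gene Gm24445 (122982837 to 122982943), whose strand is not in the tables used, lay in 1 of the long gaps, 898 bases from the nearest peak, and held none. The long noncoding RNA gene 2810013P06Rik (123042575 to 123044602) starts 290 bases before Ankrd11 and is read the other way. It held no peak, and nor did Cdh15, a cadherin gene that ends 15.9 kb past the end of Ankrd11.

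Beside the other genes with many peaks, Ankrd11 was ordinary in spacing and high in the length covered. With 222 peaks it stood before Enah, an actin regulator, with 211 and Jarid2, a cofactor of Polycomb repressive complex 2, with 205. Ctbp2, a corepressor, had 199 and Rbpms, an RNA-binding protein, 186. Enah had more bases under peaks, 58.5 kb against 49.7 kb in Ankrd11, and Jarid2 had 48.0 kb, each on the strand with most of its peaks. Among the 41 genes, the median gap was longer than the 147 bases of Ankrd11 in 28 and shorter in 13. The share of gaps of at most 50 bases was 21.3% in Ankrd11 and had a median of 21.3% in the others. Peaks per kb were lower than in Ankrd11 in 32 of the 41 genes and higher in 9.

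The same genes differed widely in where their peaks lay. The first 20% of the gene body held 32.9% of the peaks of Ankrd11, against 9.95% in Enah, 40.4% in Jarid2 and 37.7% in Ctbp2. It held 44.6% in Rbpms, 55.6% in Msi2, an RNA-binding protein of stem cells, 37.6% in the histone acetyltransferase gene Kat6b and 69.6% in Macf1, a cytoskeletal linker. In the actin nucleator gene Cobl it held 41.1% and in the nuclear transport gene Ranbp17 32.7%. The last 20% held 11.3% in Ankrd11, 29.2% in Cobl and 1.11% in Msi2. The longest gap was 12.4 kb in Ankrd11, 4.17 kb in Enah and 50.9 kb in Msi2.

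**Figure D4:**
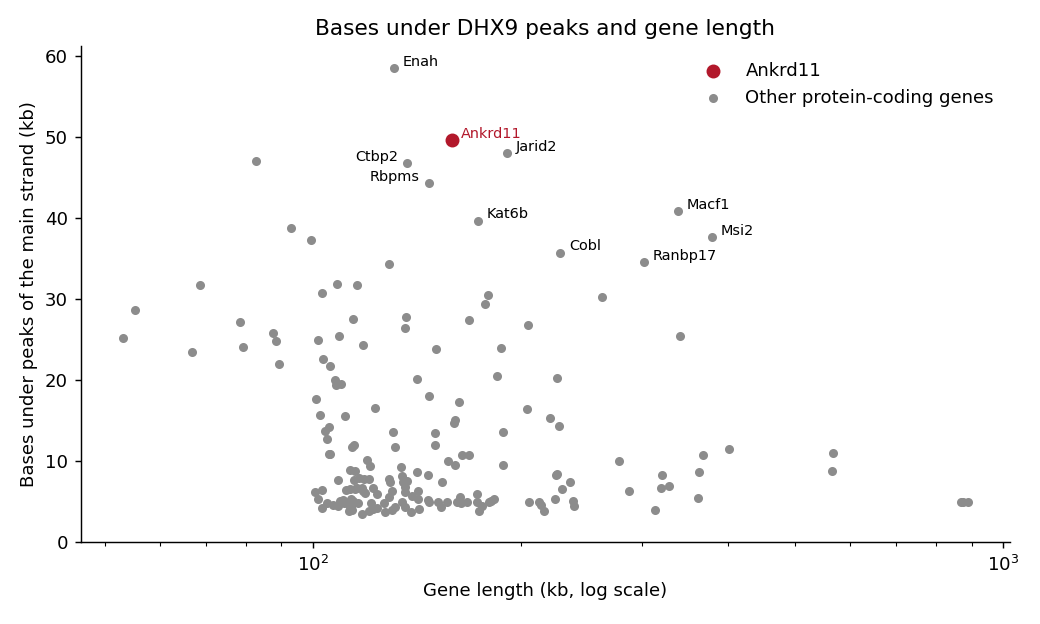
Bases under DHX9 peaks on the strand with most of a gene's peaks (y axis, kb) against gene length (x axis, kb, log scale), for Ankrd11 (red) and other protein-coding genes (grey) that hold at least 100 peaks, or are 100 kb or longer and hold at least 20; the 10 genes with the most peaks are named. Ankrd11 lies at 49.7 kb, below Enah at 58.5 kb.

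Among long genes, the coverage of Ankrd11 stood near the top while its position profile lay well within the range of the others. The other protein-coding genes that are 100 kb or longer and hold at least 20 peaks numbered 169. Of these, 2 had a larger share of the gene under peaks than the 31.2% of Ankrd11, and the median was 5.53%. This share follows in part from the number of peaks, by which Ankrd11 was chosen. Among the other 41 genes with at least 100 peaks, 10 had a larger share than Ankrd11, and the median was 24.5%. In the 169 long genes, the share of peaks in the first 20% was above that of Ankrd11 in 84 and below it in 85. The share in the last 20% was above the 11.3% of Ankrd11 in 52 and below it in 117, with a median of 4.35%. Overlapping gene records were counted separately in these splits and medians. The long Pcdhga and Pcdhgb genes of chromosome 18 share the same 24 or 25 peaks. Each had at most 4% of them in its first 20%, so all are among the 85, and all are among the 117. The longer overlapping records Gm37013, Gm38666 and Gm38667 hold the same 25 peaks. They had 0% of them in the first 20% and 100% in the last 20%, so they are among the 85 and the 52.

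Genes of like length mostly held few peaks or none. Of the other 368 protein-coding genes within 10% of its length (143 to 175 kb), 102 held a peak, and those held a median of 4. Only 12 held at least 50. The most were in Rbpms (186) and Kat6b (173), then Znrf3, a ubiquitin ligase gene of Wnt signalling, with 120, and Tex14, known for its part in germ cell division, and Tmem131 with 86 each. Overlapping records with the same peaks, such as Pcdhga2 and Pcdhga3 (25 peaks each), were counted separately here too.

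The genes picked for a profile most like that of Ankrd11 had their highest share in 1 of the first 3 of 10 parts and a lower one in part 4, as Ankrd11 did. So did the median profile of all the other genes compared, with 17.7% in part 2 and 10.2% in part 4. Pearson correlation was taken over the peak counts in 10 equal parts of the gene, read along the strand of its peaks, in 156 other protein-coding genes that are 50 kb or longer and hold at least 50 peaks. The median r was 0.47 and the highest 0.86. The 5 highest were Fbxw11, a ubiquitin ligase subunit (r = 0.86, 63 peaks), Eps15l1, an endocytic adaptor (0.86, 72 peaks), and the zinc finger gene Zfp292 (0.86, 51 peaks). Then came Tnrc6c, a partner of Argonaute in microRNA silencing (0.84, 94 peaks), and Gnb1, a G protein subunit (0.83, 75 peaks). In 20 parts instead of 10, 4 of these 5 stayed among the 5 most like, and the highest r was 0.71. Part 9 held 9.01% of the peaks of Ankrd11, against 0 to 4% in each of the 5.

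**Figure D5:**
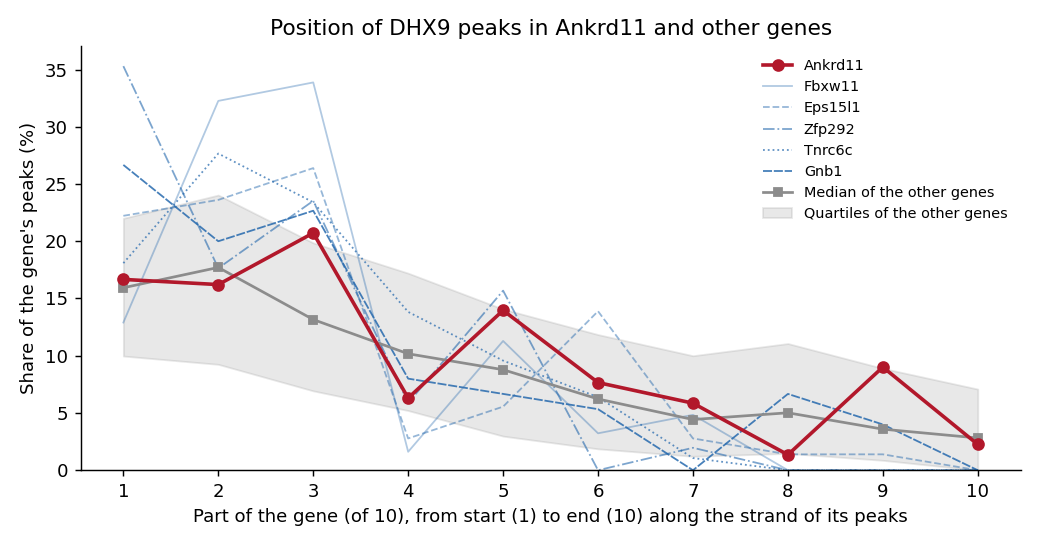
Share of a gene's DHX9 peaks (y axis, percent) in each of 10 equal parts of the gene from start to end (x axis), for Ankrd11 (red), the 5 genes with the most similar profile (blue) and the median and quartiles of the 156 other genes compared (grey line and band). Ankrd11 holds 20.7% of its peaks in part 3, 1.35% in part 8 and 9.01% in part 9, where the median of the others is 3.59%.

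Partners and relatives of the ANKRD11 protein were examined as a list of 22 genes, all found in the gene table. A peak was present in 16 of them (72.7%, interval 51.8 to 86.8%), against 22.8% of all protein-coding genes and a mean of 28.1% in the length deciles to which the 22 belong. The median was 5.5 peaks. The 22 genes were chosen with earlier results of these data known, so the share is a description, and the interval does not cover that choice. Expression was not in the list, so silent and transcribed genes were not separated in any of these shares, and no test was made of it.

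Ncor1, a corepressor that recruits histone deacetylases, held the most peaks of the list, 101 over 142 kb, all on its own strand. Its cofactors Tbl1x and Tbl1xr1 held 24 and 19. The deacetylase gene Hdac4 held 3, and Hdac3 and Hdac5 held none. The p160 coactivators differed: Ncoa3 held 58 peaks, Ncoa2 held 1 over 235 kb and Ncoa1 none over 230 kb.

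Of the acetyltransferase complex genes, Tada2a held 32, Kat2b 6 and Kat2a 1, while Tada2b and Tada3 held none. Among the ankyrin repeat genes, Ankrd17 held 44, Ankrd10 27, Ankrd28 21 and Ankhd1 6. Ankrd12, the closest relative of Ankrd11, held 1 peak over 113 kb, against the 222 over 159 kb of Ankrd11. Dhx9 itself held 45. In the 17 list genes whose strand is known, 282 peaks were on the gene's strand and 2 on the other.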

How the data were processed

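The authors deposited 1 list of peaks with first base, last base and strand, called with PEAKachu per the file's source column. The PEAKachu version and settings, and its use of the IgG samples, are not stated there or in the labels. Bowtie2 2.2.6 and the builds hg19 and mm10 are named in the submitters' processing notes, and mm10 was taken from the list's chromosome names. Random adapter bases served to merge PCR duplicates, per the labels' protocols.

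Genes came from RefSeq GRCm38.p6, the assembly of mm10 (49980 placed genes). A peak was assigned to every gene holding its midpoint, on either strand. Strand was read from RefSeq start windows, which list 27025 genes. Exons were not analysed here. Gaps count bases between peaks of 1 strand, and peaks within 50 bases were merged into runs. Python 3.11.15, numpy 2.4.6, pandas 2.3.3 and scipy 1.17.1 were used. The functions were tested on simulated data, where all 200 planted genes gave their planted counts.

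Ankrd11, the gene lists and the rule for named genes were chosen with earlier results of these data known. Named were Ankrd11, its overlapping genes and those within 20 kb, the 10 genes with the most peaks, the 5 of like length with the most, the 5 most similar profiles, the coregulator list and Dhx9. Acsf3, Xist, Tcf20, Gm37013, Gm38666, Gm38667 and the Pcdhga and Pcdhgb genes were named after their values were seen, and not all list members are printed. No test was made, because the list holds no replicates.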

Additional observations from a re-analysis of the deposited data

How the results depend on the processing

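Of 29 values recomputed under other settings, 12 moved: a count or density by more than 1.5 times, a share or median out of its 95% binomial interval, or a rank at all. The other 17 stayed within these limits. Restricted to peaks of at least the median width of the list (196 bases), a filter used because the list has no score, Ankrd11 kept 123 peaks or 0.774 per kb, the first 20% of the gene held 40.7% and its median gap was 347.5 bases. By midpoint distance the median spacing was 388.5 bases, and between merged runs it was 198 bases; the median run was 224 bases wide. Merging within 200 bases left 87 runs, against 175 within 50 bases. Any overlap, whole peaks and peaks in no other gene gave 222, 221 and 177 peaks. Borders at 3 kb gave 7 blocks in place of 12, and at 1 kb 18. Ankrd11 ranked 1 by peaks and by runs, 2 by wide peaks and by bases covered, and 170 of 2330 by peaks per kb. With at least 3 peaks required, 13 coregulator genes remained in place of 16. The block borders, the ranks and the 3-peak limit were chosen after seeing the data. No replicate could be left out, and better-scoring peaks could not be picked, because the list has neither. No paired analysis was possible because the list has no values per replicate.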

Other observations

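Peaks on the opposite strand, as in Gm39273 and Gm39272, were common among long noncoding RNA genes. Of the 415 such genes of known strand with a peak, 208 (50.1%) had none on their own strand. Where the gene overlapped protein-coding genes of the opposite strand only, 583 peaks (66.4%) were on the strand of those genes and 295 on its own. Where it overlapped no protein-coding gene, the share on the opposite strand was 21.4% (131 peaks, with 481 on its own strand), and in protein-coding genes it was 2.01%. Of these 131 peaks, 30 were in Xist. By peak number, Gm39273 and Gm39272 ranked 4 and 7 among the 208 genes whose peaks were all on the other strand. Counting without strand thus gave these genes peaks that lay on the other strand, often that of an overlapping protein-coding gene. Overlap with other noncoding genes was not considered, and the source of peaks where no protein-coding gene overlapped was not tested.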
